A study of Mus musculus with 40 samples.

Results

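The genes Cyp2b9, Cyp2b10, Cyp2b13, Cyp2a4, Cyp2a5, Cyp2a12, Cyp2a22 and Cyp2e1 encode cytochrome P450 enzymes of the Cyp2b, Cyp2a and Cyp2e subfamilies. They were taken from the count table by gene identifier, as 8 of its 21500 genes, and 7 of them had enough reads for the test across all genes. RNA sequencing was done on livers of 20 male C57BL/6J mice aged 20 weeks, with 10 in each of 2 groups. All mice ate CDAA-HFD from 8 weeks of age, a choline-deficient diet of defined amino acids in which fat gives 60% of the energy and methionine is at 0.1%, used to bring on fatty liver with inflammation and fibrosis. The CDAA-HFD mice, numbered 31 to 40, stayed on this diet alone and are the controls. The BLT1i mice, numbered 71 to 80, were given BLT1i at 90 mg/kg in the same diet after the first 4 weeks, for 8 weeks. BLT1 is the usual short name of the leukotriene B4 receptor encoded by Ltb4r1, and the comparison asked how the liver on this diet differs under the inhibitor. Every difference given here is thus between groups that share the diet.

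P450 enzymes sit in the endoplasmic reticulum and, with electrons from the reductase Por and with heme as their cofactor, oxidise drugs, toxins, steroids and fatty acids. In mouse liver the Cyp2b genes are known as targets of the xenobiotic receptor CAR, and Cyp2b10 is the gene most used to report its activation. Cyp2b9, Cyp2b13 and Cyp2a4 are also known for higher expression in female than in male liver, where growth hormone acting through STAT5B and HNF4A holds them down in males. Cyp2a5 hydroxylates coumarin and nicotine and is known to respond to liver injury, NRF2 and CAR. Cyp2e1 oxidises ethanol and paracetamol, releases reactive oxygen species while doing so, and is a classic enzyme of the hepatocytes around the central vein, where beta-catenin signalling sustains it.

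All 8 genes lie on mouse chromosome 7. In the order of the RefSeq annotation, Cyp2b10, Cyp2b13 and Cyp2b9 are neighbours, Cyp2a4 follows after 1 other protein-coding gene, and Cyp2a5, Cyp2a22 and Cyp2a12 follow after 7 more. Cyp2e1 is far from this cluster, with 1387 protein-coding genes between it and Cyp2a12. The cluster grew by duplication, and its members come in near-identical pairs. The coding sequences of Cyp2a4 and Cyp2a5 had 1462 of 1485 aligned bases in common, those of Cyp2a12 and Cyp2a22 1434 of 1479, and those of Cyp2b9 and Cyp2b13 1368 of 1476. Cyp2b9 and Cyp2b10 had 1295 of 1476 in common.

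The stretch just before the start of transcription was closer still in the Cyp2b9 and Cyp2b13 pair. The members of this pair moved together across mice, and those of the Cyp2a4 and Cyp2a5 pair did not do so detectably. Whether the promoter bears on this was not tested. The 250 bases before the start are given here for both pairs, chosen after their correlations were seen, and for Cyp2b10. They are 5′ to 3′ from RefSeq on GRCm38.p6, which is not the build of the count table, and all lie on the plus strand: chr7:26173159-26173408 for Cyp2b9, chr7:26061245-26061494 for Cyp2b13, chr7:25897408-25897657 for Cyp2b10, chr7:26306942-26307191 for Cyp2a4 and chr7:26835089-26835338 for Cyp2a5. Capitals mark the bases that differ from the partner in the alignment, where the partners are Cyp2b9 with Cyp2b13, Cyp2b10 with Cyp2b9, and Cyp2a4 with Cyp2a5.
Cyp2b9: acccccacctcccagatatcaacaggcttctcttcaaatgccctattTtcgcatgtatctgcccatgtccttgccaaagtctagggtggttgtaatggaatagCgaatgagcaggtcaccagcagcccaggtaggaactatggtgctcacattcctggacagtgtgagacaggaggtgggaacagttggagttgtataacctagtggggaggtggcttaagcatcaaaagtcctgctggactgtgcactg
Cyp2b13: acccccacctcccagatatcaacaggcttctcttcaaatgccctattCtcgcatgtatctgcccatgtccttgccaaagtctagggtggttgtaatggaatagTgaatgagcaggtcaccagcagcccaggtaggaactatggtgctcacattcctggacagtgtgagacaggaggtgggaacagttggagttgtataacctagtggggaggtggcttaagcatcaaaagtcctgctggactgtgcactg
Cyp2b10: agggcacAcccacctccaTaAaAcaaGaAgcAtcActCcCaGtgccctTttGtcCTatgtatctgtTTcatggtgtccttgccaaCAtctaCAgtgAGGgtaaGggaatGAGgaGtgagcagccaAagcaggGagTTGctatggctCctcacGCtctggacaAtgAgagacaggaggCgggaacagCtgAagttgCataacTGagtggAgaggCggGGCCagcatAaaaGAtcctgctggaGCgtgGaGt
Cyp2a4: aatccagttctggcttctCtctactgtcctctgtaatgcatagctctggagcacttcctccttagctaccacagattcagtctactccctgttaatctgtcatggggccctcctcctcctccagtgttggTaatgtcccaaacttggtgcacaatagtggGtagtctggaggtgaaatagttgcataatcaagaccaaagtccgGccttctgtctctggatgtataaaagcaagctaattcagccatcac
Cyp2a5: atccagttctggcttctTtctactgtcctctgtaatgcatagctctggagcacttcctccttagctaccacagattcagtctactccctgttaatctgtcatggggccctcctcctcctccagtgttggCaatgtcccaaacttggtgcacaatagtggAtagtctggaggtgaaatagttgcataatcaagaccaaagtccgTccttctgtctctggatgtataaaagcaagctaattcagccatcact

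Cyp2b9 and Cyp2b13 differed at 2 of 250 aligned bases, and Cyp2a4 and Cyp2a5 at 4 of 249, with the Cyp2a5 window lying 1 base further on. Cyp2b10 differed from Cyp2b9 at 58 of 240 aligned bases. Over the RefSeq window of 250 bases before to 50 after the start, Cyp2a12 and Cyp2a22 had 262 identical bases. The nuclear receptor hexamer AGGTCA, searched on both strands, began 138 bases before the start of Cyp2b9 and of Cyp2b13, and was not found in the window of Cyp2b10. It also lay on the minus strand 30 bases after the start of Cyp2a4 and 29 after that of Cyp2a5, beyond the bases given here. It thus occurred in 4 of the 8 windows, and in 16.3% of the 32851 mouse promoter windows. The TATA box letters TATAAA stood in the windows of all 4 Cyp2a genes and of Cyp2e1, and in 13.6% of all windows. The motif TTCNNNGAA of STAT5 and the motif TTGCGNAA of C/EBP had no match in the 8 windows, against 8.3% and 0.798% of all windows. Such matches describe letters in a short window and say nothing about binding in these livers.

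Near-identical sequence limits how well reads can be assigned. Of all stretches of 100 bases, the read length, in the reference transcript of Cyp2a4, 11.17% also occurred in Cyp2a5, and 9.561% of those of Cyp2a5 occurred in Cyp2a4. For Cyp2a12 and Cyp2a22 the shares were 6.827% and 6.364%. In all, 14.37% of the stretches of Cyp2a5 occurred in some other gene. Cyp2b9 and Cyp2b13 had 1.182% in common, but 9.291% of the stretches of Cyp2b13 occurred in some other gene, most of them in the predicted gene Gm45225 (8.502%), which is part of none of the sums given here. Cyp2b10 had no stretch in any other gene, and none was common to a Cyp2a and a Cyp2b gene. How the authors divided reads that fit several genes is not stated in the labels, which leaves the values of Cyp2a4, Cyp2a22 and the other paired genes uncertain to that extent, and sums over each pair are given as well.

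Scaled to gene length, the 8 genes spanned a wide range of levels in the CDAA-HFD mice. The authors' rounded FPKM of Cyp2e1 had a median of 1958.5 and ranged from 1431 to 2392. Cyp2a5 had a median of 188 (150 to 233) and Cyp2a12 one of 122.5 (100 to 153), so these neighbours in the order overlapped only at the edges of their ranges. Cyp2b9 (median 8, range 1 to 20), Cyp2a4 (6.5, 2 to 15) and Cyp2a22 (4.5, 3 to 8) overlapped and could not be ranked. Cyp2b13 and Cyp2b10 were listed at 0 in every CDAA-HFD mouse, where rounding removes any level that would round to 0. In the BLT1i mice the order was the same down to Cyp2a22, with medians of 2465.5 for Cyp2e1, 295.5 for Cyp2a5 and 135.5 for Cyp2a12, and the ranges of Cyp2a5 (226 to 395) and Cyp2a12 (121 to 155) no longer met. Cyp2b13 reached at most 3 and Cyp2b10 stayed listed at 0.

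Cyp2a5 and Cyp2e1 rose in the livers of BLT1i mice, none of the 7 tested genes fell, and 5 did not pass the threshold of an adjusted p of 0.05 (edgeR quasi-likelihood test, Benjamini-Hochberg over 13993 genes). Across all genes tested, 3.65% passed as higher and 1.98% as lower with BLT1i. The log2 fold change was above 0 for all 7 tested members, with a median of 0.54, whereas the median over all genes tested was -0.0086. The levels below are CPM (counts scaled to the size of the library), scaled between libraries by TMM.

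**Figure D1:**
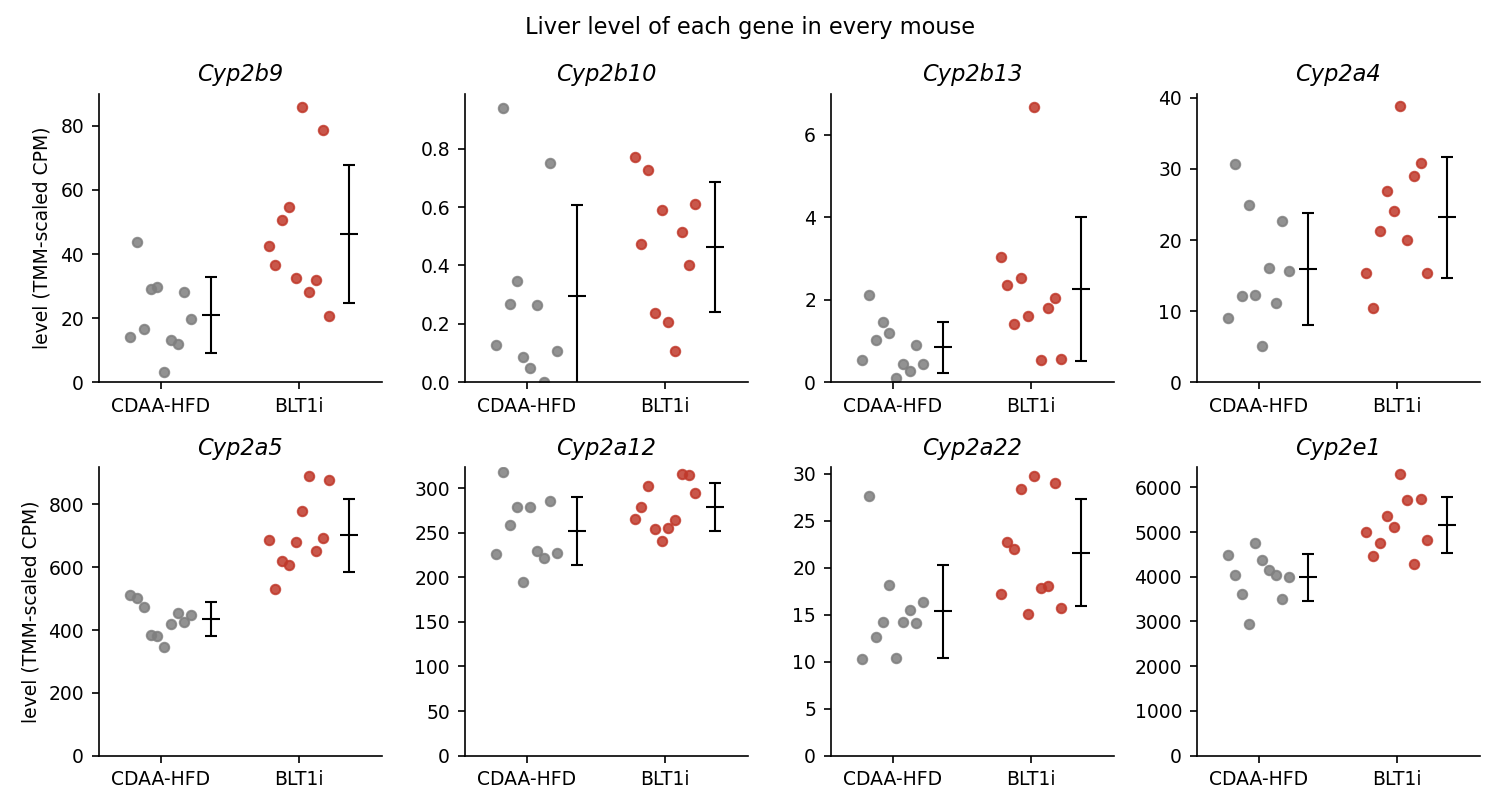
Level of each gene in TMM-scaled CPM (vertical axis, starting at 0) in the CDAA-HFD mice (grey) and the BLT1i mice (red), 1 point per mouse, with mean and SD (n = 10 per group) in black. For Cyp2a5 the BLT1i mice, from 530 upward, sit above the CDAA-HFD mice, which reach 512, whereas the groups overlap for the other genes.

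Cyp2a5 showed the clearest difference. Its level ranged from 347 to 512 CPM in controls, with a median of 436, and from 530 to 892 CPM in the BLT1i mice, with a median of 683. The ranges did not overlap, and all 10 BLT1i mice exceeded the highest control, which held for 0.422% of the genes tested. The mean went from 434 ± 53.9 to 702 ± 116 CPM (SD, n = 10 per group), a log2 fold change of 0.69 ± 0.09 (SE; 95% CI 0.51 to 0.87) or 1.62-fold (edgeR adjusted p = 2.26e-05). The 2 highest mice were BLT1i mice 77 and 80, at 892 and 879 CPM, and the lowest BLT1i mouse was mouse 72. With its near-identical partner Cyp2a4 added, the summed level rose by the same factor, with a log2 fold change of 0.69 ± 0.09 (edgeR adjusted p = 2.23e-05). Cyp2a5 held from 93.9% to 98.5% of this sum in controls and from 95.2% to 98.3% in the BLT1i mice, so the sum is almost all Cyp2a5.

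Cyp2a4, a female-predominant testosterone hydroxylase, had a similar estimate with a far wider spread. It ranged from 5.11 to 30.7 CPM (median 13.9) in controls and from 10.5 to 38.9 CPM (median 22.6) in the BLT1i mice. The groups overlapped over most of this range, and 2 BLT1i mice exceeded the highest CDAA-HFD mouse. The log2 fold change of 0.54 ± 0.28 (95% CI -0.05 to 1.13) did not pass (edgeR adjusted p = 0.307). Whether Cyp2a4 and Cyp2a5 responded differently was not tested, and the interval of Cyp2a4 contains that of Cyp2a5.

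Cyp2e1 rose by a smaller factor from a much higher level. In the CDAA-HFD mice it ranged from 2948 to 4747 CPM with a median of 4045, and in the BLT1i mice from 4281 to 6287 CPM with a median of 5059. Of the BLT1i mice 8 exceeded every control, and all 10 exceeded the control median. The mean went from 3991 ± 522 to 5153 ± 622 CPM (SD, n = 10 per group), a log2 fold change of 0.37 ± 0.08 (95% CI 0.21 to 0.53) or 1.29-fold (edgeR adjusted p = 0.00487). With the mean level of immediate early genes added as a covariate, the log2 fold change of Cyp2e1 was 0.29 and did not pass (edgeR adjusted p = 0.446). That covariate nearly follows the groups, so this fit cannot separate it from treatment. In bulk liver, more RNA per cell and more cells of the kind that express a gene cannot be told apart, for Cyp2e1 as for the other genes.

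The Cyp2a12 and Cyp2a22 pair did not pass. Cyp2a12, which hydroxylates steroids, ranged from 195 to 318 CPM (median 244) in controls and from 241 to 316 CPM (median 272) in the BLT1i mice. Its log2 fold change of 0.15 ± 0.07 (95% CI -0.01 to 0.30) was the smallest of the 8, and no BLT1i mouse lay above the highest control (edgeR adjusted p = 0.288). Cyp2a22 ranged from 10.2 to 27.6 CPM (median 14.2) and from 15.1 to 29.7 CPM (median 20.0). The log2 fold change of Cyp2a22 was 0.49 ± 0.17 (95% CI 0.13 to 0.85; edgeR adjusted p = 0.109). CDAA-HFD mouse 32, at 27.6 CPM, stood apart from the next control at 18.1 CPM. Without mouse 32 the log2 fold change of Cyp2a22 was 0.63 and passed (edgeR adjusted p = 0.0140), as did that of the Cyp2a12 and Cyp2a22 sum, at 0.22 (edgeR adjusted p = 0.0495), which with all mice was 0.17 and did not pass.

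Cyp2b9 and Cyp2b13 had the largest estimates of the 8 genes, with a wide spread. Cyp2b9 ranged from 3.15 to 43.9 CPM (median 18.2) in controls and from 20.6 to 86.0 CPM (median 39.6) in the BLT1i mice. The ranges overlapped, with 4 BLT1i mice above the highest CDAA-HFD mouse and 6 CDAA-HFD mice below the lowest BLT1i mouse, and all 10 BLT1i mice above the CDAA-HFD median. The mean was 21.0 ± 11.8 CPM without and 46.2 ± 21.6 CPM with BLT1i (SD, n = 10 per group), a log2 fold change of 1.14 ± 0.35 (95% CI 0.41 to 1.86) that did not pass (edgeR adjusted p = 0.0608). This gene lay close to the threshold, and its call depended on the method: the log2 fold change of 1.14 passed with DESeq2 (adjusted p = 0.0215) and with limma-voom (adjusted p = 0.0401). It also passed in edgeR without CDAA-HFD mouse 32 (1.33, adjusted p = 0.0268) or without BLT1i mouse 80 (1.22, adjusted p = 0.0479).

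Cyp2b13 had the largest estimate of the 8 genes, from few reads. Its counts ran from 2 in CDAA-HFD mouse 36 to 162 in BLT1i mouse 76, and its level ranged from 0.0955 to 2.11 CPM (median 0.724) in controls and from 0.542 to 6.67 CPM (median 1.92) in the BLT1i mice. The groups overlapped, with 4 BLT1i mice above every control. The log2 fold change of Cyp2b13 was 1.42 ± 0.44 (95% CI 0.49 to 2.34; edgeR adjusted p = 0.0656). It passed with DESeq2 (1.41, adjusted p = 0.0393), and in edgeR without mouse 32 (1.69, adjusted p = 0.0290), without mouse 77 (1.52, adjusted p = 0.0419) or without mouse 80 (1.52, adjusted p = 0.0423). On log2 of the rounded FPKM plus 1, where Cyp2b13 is 0 in most mice, the estimate was 0.50.

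Cyp2b10, the CAR reporter gene, was near the limit of detection in both groups. Its counts ranged from 0 to 25 in controls and from 2 to 20 in the BLT1i mice, and 1 mouse had none. The level ranged from 0 to 0.941 CPM (median 0.196) and from 0.108 to 0.770 CPM (median 0.493), and no BLT1i mouse exceeded the highest CDAA-HFD mouse. It did not pass the filter on low counts. Fitted without that filter, the log2 fold change was 0.61 ± 0.47 (95% CI -0.35 to 1.57; edgeR adjusted p = 0.563). The interval spans no change and a rise of 2.98-fold, so neither is shown at this depth. The sum of the 3 Cyp2b genes, of which Cyp2b9 held 91.8% to 97.9%, had a log2 fold change of 1.14 ± 0.35 (edgeR adjusted p = 0.0621).

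**Figure D2:**
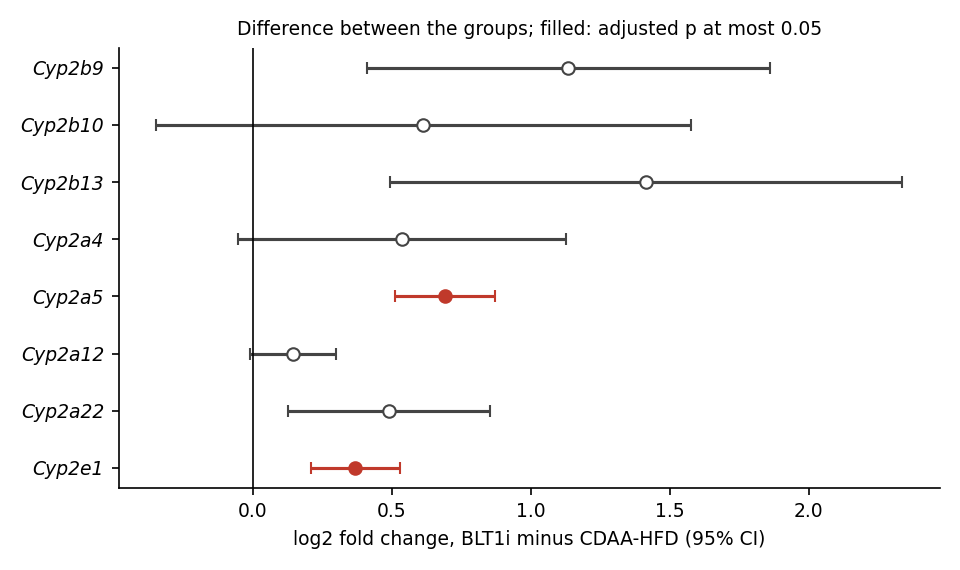
Log2 fold change of each gene, BLT1i minus CDAA-HFD (horizontal axis), with its 95% confidence interval; filled red points passed an edgeR adjusted p of 0.05, and Cyp2b10 comes from the fit without a filter on low counts. The intervals of Cyp2a5 and Cyp2e1 are narrow around 0.69 and 0.37, and those of Cyp2b9 and Cyp2b13 are wide around 1.14 and 1.42.

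The genes differed in how much they varied between mice of the same group. The SD of log2 CPM within groups was 1.05 for Cyp2b13, 0.87 for Cyp2b9 and 0.67 for Cyp2a4, larger than in 99.8%, 99.6% and 99.2% of all genes tested, for which the median was 0.14. For Cyp2a22 the SD of log2 CPM was 0.39, larger than in 93.4% of genes. Cyp2a5, Cyp2e1 and Cyp2a12, with SDs of 0.21, 0.19 and 0.18, were larger than in 74.8%, 69.2% and 68.1% of genes. The 3 genes known as female-predominant were thus the most variable of the tested members. The shares compare genes of every level, and Cyp2b13 had at most 162 reads in any mouse, so counting noise adds to its SD. Among the CDAA-HFD mice the highest Cyp2b9 level was 13.9 times the lowest, and among the BLT1i mice 4.18 times, whereas for Cyp2e1 these ratios were 1.61 and 1.47.

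Whether BLT1i changed that spread was tested with limma on absolute deviations from the group median. No member passed (0% of 13993 genes did, with 702 at an unadjusted p under 0.05), and the adjusted p values of the members lay between 0.932 and 0.999. The mean deviation of Cyp2b9 was 0.75 on the log2 scale in the CDAA-HFD mice and 0.52 in the BLT1i mice, a difference of -0.23. On simulated data this test recovered few genes whose spread had been multiplied, so the absence of a call does not show equal spread.

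The variation between mice was shared by part of the genes. Among the CDAA-HFD mice, Cyp2b9 and Cyp2b13 were both lowest in mouse 36, at 3.15 and 0.0955 CPM, and both highest in mouse 32, at 43.9 and 2.11 CPM. Cyp2a4 was also lowest in mouse 36, at 5.11 CPM, and highest in mouse 32, at 30.7 CPM. Cyp2a4 and Cyp2b9 share no stretch of read length. Among the BLT1i mice, mouse 76 was highest in Cyp2b9, Cyp2b13, Cyp2a4, Cyp2a22 and Cyp2e1, at 86.0, 6.67, 38.9, 29.7 and 6287 CPM. Cyp2a5 was highest in mice 77 and 80, which had the lowest Cyp2b13 levels of their group, at 0.542 and 0.559 CPM. Over all mice of a group, these 2 genes had r = 0.335 in the CDAA-HFD mice (permutation p = 0.342, adjusted 0.533). In the BLT1i mice they had r = -0.46 (permutation p = 0.183, adjusted 0.428), and neither passed.

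**Figure D3:**
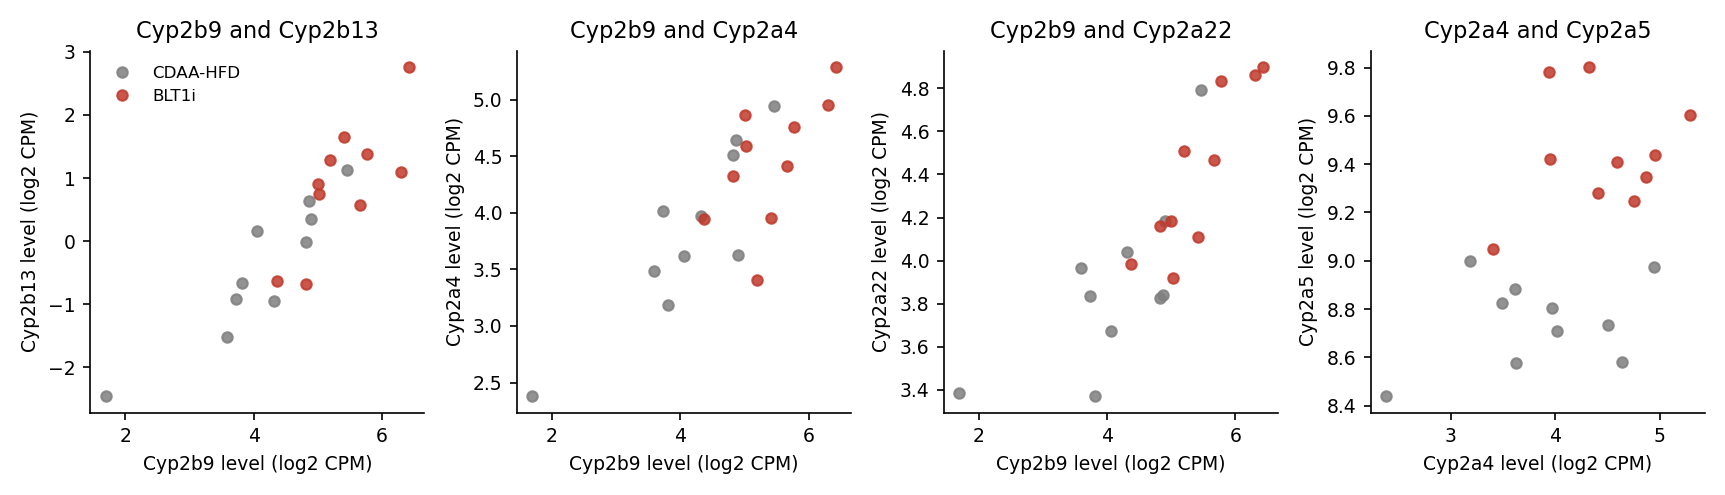
Log2 CPM of pairs of genes, 1 point per mouse, for CDAA-HFD (grey) and BLT1i (red) mice. Values of r are for the CDAA-HFD and then the BLT1i mice. They were 0.92 and 0.78 for Cyp2b9 with Cyp2b13. Cyp2b9 had 0.88 and 0.61 with Cyp2a4, and 0.71 and 0.87 with Cyp2a22. Cyp2a4 and Cyp2a5 form 2 scattered clouds (r = 0.30 and 0.20).

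Correlations of log2 CPM were computed within each group, 28 pairs in each and 56 relations in all, with permutation p values (100000 resamples, two-sided) adjusted over the 56. By Pearson's r, 3 relations passed. In the CDAA-HFD mice these were Cyp2b9 with Cyp2b13 (r = 0.92, permutation p = 0.0002, adjusted 0.0112; rho = 0.89, permutation p = 0.00104, adjusted 0.0582) and Cyp2b9 with Cyp2a4 (r = 0.88, permutation p = 0.0012, adjusted 0.0231; rho = 0.76, permutation p = 0.0153, adjusted 0.161). In the BLT1i mice it was Cyp2b9 with Cyp2a22 (r = 0.87, permutation p = 0.00124, adjusted 0.0231; rho = 0.81, permutation p = 0.00704, adjusted 0.151). None of the 56 passed by Spearman's rho. Without the 2 mice farthest from the median Cyp2b9 level, r was 0.81, 0.63 and 0.74 for these 3 relations (permutation p = 0.0246, 0.097 and 0.0342). No relation then passed after adjustment. These fits hold fewer mice and a narrower range of Cyp2b9, so they cannot tell whether the calls rest on the mice left out.

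Each relation that passed in a group had a lower r in the other group. Cyp2b9 with Cyp2a4 had r = 0.61 in the BLT1i mice (permutation p = 0.0637, adjusted 0.238, with rho = 0.61). Without the mice farthest from the median Cyp2b9 level that r was 0.23. Cyp2b9 with Cyp2b13 had r = 0.78 in the BLT1i mice (permutation p = 0.00807, adjusted 0.0753; rho = 0.73). Cyp2b9 with Cyp2a22 had r = 0.71 in the CDAA-HFD mice (permutation p = 0.0308, adjusted 0.172; rho = 0.64). Cyp2b13 with Cyp2a4 passed in neither group. Its r was 0.80 in the CDAA-HFD mice (permutation p = 0.0058, adjusted 0.0752, with rho = 0.70) and 0.38 in the BLT1i mice. Over all 20 mice after removing each group's mean, Cyp2b9 had r = 0.85 with Cyp2b13, 0.79 with Cyp2a4 and 0.76 with Cyp2a22 (permutation test, adjusted over 28 pairs, p = 0.00028, 0.00042 and 0.00084). Of the 28 pairs 8 passed in this form by r, 7 of them positive, and 5 by rho. The negative one was Cyp2b10 with Cyp2e1 (r = -0.54, adjusted permutation p = 0.0481, with rho = -0.63, adjusted permutation p = 0.022). Within the groups its r was -0.48 in the CDAA-HFD mice and -0.67 in the BLT1i mice, and neither passed. Cyp2b10 was near the limit of detection. Whether any correlation differed between the groups was not tested.

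The near-identical Cyp2a pairs did not covary detectably. Cyp2a4 with Cyp2a5 had r = 0.30 in the CDAA-HFD mice (permutation p = 0.396, adjusted 0.583, with rho = 0.03). In the BLT1i mice this pair had r = 0.20 (permutation p = 0.577, adjusted 0.703, with rho = 0.10). Their promoter windows differ at few bases, and reads may have been exchanged between them. Whether either bears on these correlations was not tested. Cyp2a12 with Cyp2a22 had r = 0.18 and 0.07 in the CDAA-HFD and BLT1i mice. The 2 genes that rose were not closely correlated either: Cyp2a5 with Cyp2e1 had r = 0.06 in the CDAA-HFD mice (permutation p = 0.873, adjusted 0.959) and r = 0.50 in the BLT1i mice (permutation p = 0.143, adjusted 0.386). Cyp2b9 with Cyp2e1 had r = -0.34 in the CDAA-HFD mice and 0.58 in the BLT1i mice, and neither passed.

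**Figure D4:**
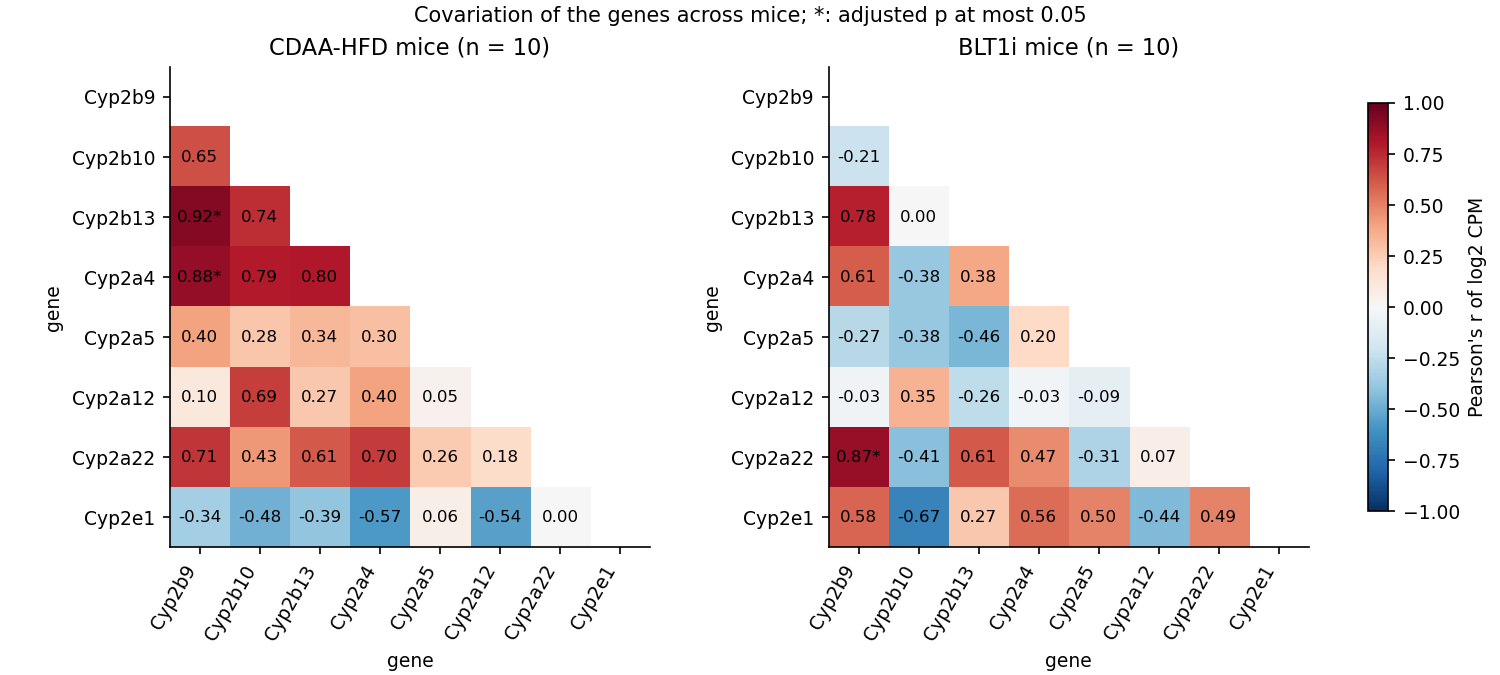
Pearson's r of log2 CPM for each pair of genes (both axes list the genes) in the CDAA-HFD mice (left) and the BLT1i mice (right), n = 10 each, from blue (negative) to red (positive); asterisks mark an adjusted permutation p of at most 0.05. Cyp2b9, Cyp2b13, Cyp2a4 and Cyp2a22 have positive values with each other in both groups, from 0.38 to 0.92.

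Among the 13308 other genes with a mean of at least 1 CPM, those whose level followed a member most closely across the 20 mice, after removing group means, are given as a description. Cyp2b9 was most like Tmem201 (r = 0.87), Fam171a2 (r = 0.83) and Cyp2c29 (r = 0.82), a CAR-inducible P450 that rose from 59.3 to 286 CPM. With Tmem201 it had r = 0.98 in the CDAA-HFD mice but 0.55 in the BLT1i mice. The closest genes to Cyp2b13 were Hamp2 (r = 0.86), a hepcidin gene, Slc22a27 (r = 0.79) and Gprc5a (r = 0.79). Cyp2a4 was most like Hist1h3f (r = 0.82), a histone gene, Nt5e (r = 0.81) and Hist1h3b (r = 0.79). For Cyp2a4 these were 0.95, 0.96 and 0.87 within the CDAA-HFD mice but 0.56, 0.47 and 0.62 within the BLT1i mice. Cyp2a22 was most like Cyp2c38 (r = 0.88), the fatty acid hydroxylase Cyp4a14 (r = 0.83) and the prolactin receptor Prlr (r = 0.82). Cyp2a5 followed Marveld1 (r = 0.84), the Wnt receptor Fzd4 (r = 0.83) and Pbld1 (r = 0.82). Cyp2e1 followed Slc1a2 (r = 0.90), a glutamate transporter, Ccp110 (r = 0.84) and Ddx5 (r = 0.82). Cyp2a12 had the highest values, with Ogdh (r = 0.94), its cluster neighbour Cyp2f2 (r = 0.93) and the epoxide hydrolase Ephx1 (r = 0.92). Of these 21 genes, Cyp2c29, Cyp4a14 and Ephx1 passed as higher with BLT1i, and the others did not pass.

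Other targets of CAR and PXR rose in the same livers. Of 36 tested genes on that list, without the 8 genes described here, 16 were higher and none lower, with a median log2 fold change of 0.26 against -0.0086 over all genes. Their summed level ranged from 9659 to 13423 CPM in controls and from 15409 to 17550 CPM in the BLT1i mice, without overlap. This sum leans on Cyp3a11, whose mean alone went from 2053 to 5547 CPM, and 20 of the 36 genes did not pass. Cyp3a11, the main inducible Cyp3a enzyme, was 1.43 ± 0.06 higher on the log2 scale (edgeR adjusted p = 1.63e-13), Cyp3a59 1.74 ± 0.10 (1.70e-10) and Cyp2c55 1.93 ± 0.14 (1.15e-08). Of 30 receptors and factors that control the 8 genes, none passed as higher and 1 as lower. The lower gene was Hlf, a circadian PAR bZIP factor, whose log2 fold change was -0.26 ± 0.07 (edgeR adjusted p = 0.0168). With DESeq2, Ppara, the fatty acid receptor PPAR-alpha, passed as higher at 0.25 (adjusted p = 0.0428), which edgeR put at 0.24 (adjusted p = 0.0869).

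**Figure D5:**
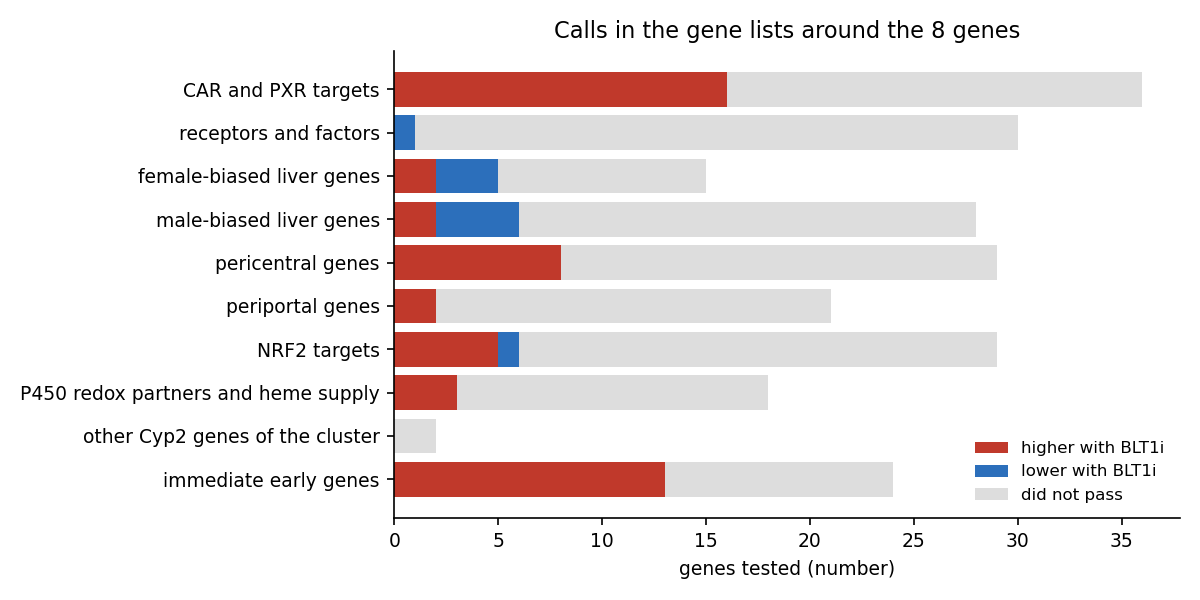
Number of tested genes (horizontal axis) in each gene list that were higher (red) or lower (blue) with BLT1i at an edgeR adjusted p of at most 0.05 or did not pass (grey). The CAR and PXR targets (16 of 36) and the immediate early genes (13 of 24) hold the most calls, and the receptors and factors hold 1 of 30.

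The lists of sex-biased liver genes held calls in both directions, and most of their genes did not pass. Of 15 tested female-biased genes, 2 were higher, 3 were lower and 10 did not pass (median log2 fold change 0.03). Of 28 male-biased genes, 2 were higher, 4 were lower and 22 did not pass (median -0.17). Across all genes tested, 3.65% passed as higher and 1.98% as lower. Among the female-biased genes Cyp4a10, a fatty acid hydroxylase, was 1.69 ± 0.16 higher on the log2 scale (edgeR adjusted p = 2.08e-06), as was the peroxisomal transporter Abcd2 at 0.44 ± 0.08. Among the male-biased genes Cyp4a12b was 1.34 ± 0.16, Serpina12 -1.18 ± 0.22 and Serpina1e, an alpha-1-antitrypsin gene, -1.48 ± 0.31, and all 3 passed. The female-predominant members Cyp2b9, Cyp2b13 and Cyp2a4 did not pass, at 1.14, 1.42 and 0.54.

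Cyp2e1 belongs to the genes of the pericentral zone. Of 29 other pericentral genes tested, 8 were higher and none lower (median log2 fold change 0.09), with Cyp3a11, Cyp2c29 at 2.27 ± 0.17 and Lhpp at 0.41 ± 0.06 having the lowest p. Of the 8, Cyp3a11, Cyp2c29, Cyp2c37, Cyp2c50 and Gstm3 are also on the CAR and PXR list. Of 21 periportal genes, 2 were higher and none lower (median 0.12): the steroid dehydrogenase Hsd17b6 at 1.22 ± 0.08 and the gluconeogenic enzyme Pck1 at 0.61 ± 0.17. Of 29 NRF2 targets, 5 were higher, 1 was lower and 23 did not pass (median 0.05). The first 3 were the malic enzyme Me1 at 0.71 ± 0.08, the exporter Abcc4 at 0.32 ± 0.07 and Ugdh at 0.26 ± 0.06. Of the 5, Abcc4 and Gstm3 are also on the CAR and PXR list.

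Por passes electrons to the P450 enzymes of the endoplasmic reticulum, and all P450 enzymes carry heme. Of 18 genes for redox partners and for heme supply and breakdown, 3 were higher and none lower (median log2 fold change 0.04). The electron donor Por, which is also on the CAR and PXR list, rose by 0.47 ± 0.10. The heme enzymes Cpox and Fech rose by 0.28 ± 0.05 and 0.17 ± 0.04. Of the 6 other Cyp2 genes of the cluster, 2 were tested and neither passed, Cyp2f2 at 0.01 ± 0.17 and Cyp2s1 at -0.07 ± 0.16, and Cyp2b23 had no read in any mouse.

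Some measures of the tissue moved with the groups. Of 24 immediate early genes, which respond to stress and handling as well as to growth signals, 13 were higher and none lower (median log2 fold change 0.42), with Ccn1 at 1.01 ± 0.11, Jun at 0.71 ± 0.08 and Egr1 at 1.49 ± 0.19. The mean log2 CPM of this list ranged from 4.53 to 5.20 in controls and from 5.14 to 5.67 in the BLT1i mice, so it nearly follows the groups. With this score as a covariate Cyp2a5 passed, with a log2 fold change of 0.86 (edgeR adjusted p = 0.00681), and Cyp2e1 did not. The counts of genes that passed as higher were then 9 of the CAR and PXR targets, 3 of the pericentral genes, 2 of the NRF2 targets and 0 of the redox and heme genes, and no sex-biased gene passed as lower. The part of this signal in the results was not tested further.

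The livers carried hepatocyte markers at a summed level of 58844 to 70974 CPM in the CDAA-HFD mice and 59290 to 72628 CPM in the BLT1i mice. Of 8 tested hepatocyte markers none was higher and 1, Serpina1c, was lower. Of 8 endothelial markers 3 were higher (Kdr, Clec4g and Oit3), with a summed level of 441 to 537 and 502 to 579 CPM. Of 7 T and B cell markers Cd8a alone was higher and 6 did not pass, with a summed level of 9.81 to 16.0 and 9.02 to 16.9 CPM. The log2 fold change was 0.71 for Cd8a, -0.26 for Cd4, -0.06 for Cd3e and 0.02 for Cd3d, and 5 of the 7 were above 0. None of 9 macrophage, 5 neutrophil, 10 stellate cell and 7 cholangiocyte markers passed. Their summed levels ranged in the CDAA-HFD and BLT1i mice from 1693 to 2477 and 1944 to 2465 CPM, from 22.5 to 31.2 and 18.6 to 28.6, from 3118 to 3609 and 2825 to 3565, and from 632 to 922 and 570 to 835. No listed marker was at 0 in all mice. The part of these cells in the results was not tested. Ltb4r1, the gene of the BLT1 receptor, was at 0.601 ± 0.164 and 0.546 ± 0.148 CPM (log2 fold change -0.16 ± 0.19, edgeR adjusted p = 0.714). Total counts per mouse were 20994073 to 27456678 in the CDAA-HFD mice and 18467060 to 26078285 in the BLT1i mice.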

How the data were processed

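Liver RNA of 20 mice was analysed. The labels list 40 samples, 2 lanes per mouse, while the deposited tables give 1 column for each mouse, and each mouse counts as 1 replicate (n = 10 per group). The merging of lanes is not given in the sources used. Per the labels' protocols, libraries came from a stranded total RNA kit with ribosomal RNA removal and were read in pairs of 100 cycles, although the labels name the molecule polyA RNA. The build was GRCm39, per the submitters' processing notes. Aligner, counter, the use of strand and the handling of reads that fit more than 1 gene are not given in the sources used, and a gene and an antisense partner may not be separated. The deposited raw counts cover protein-coding genes and were used for all main tests, and the authors also deposited FPKM rounded to whole numbers, which are treated as a score and used to compare levels between genes and in alternatives. Gene identifiers were matched to symbols for 21457 of 21500 genes.

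After filterByExpr 13993 genes remained. They were TMM-scaled and tested in edgeR 4.0.16 in R 4.3.3 (robust quasi-likelihood, two-sided, no covariate), with Benjamini-Hochberg adjustment over all of them and a threshold of 0.05. The SE was derived from the log2 fold change and its F statistic, and intervals cover 95%. Spread was tested with limma 3.58.1 on absolute deviations from the group median of log2 CPM (prior count 2). Correlations used 100000 resamples. Both tests across genes were tested on simulated data. Promoters came from RefSeq, which matched 8 of 8 members, and transcripts from GENCODE; shared stretches were counted in the longest protein-coding transcript, and coding sequence is its longest open reading frame. Alternatives were other scalings and filters, DESeq2 1.42.0, limma-voom, limma-trend on rounded FPKM, other thresholds, a covariate and each mouse left out. No cage or batch is given in the labels, and the mouse numbers run in a separate block for each group, so an effect of order cannot be told apart from treatment. The p values of group differences weigh each difference against the spread between these mice. The members and gene lists were chosen with earlier results of these data known. Named genes were the 8 members, per list up to 3 genes with the lowest p that passed, or the 2 lowest where none did, the 3 genes most like each tested member, and Ltb4r1; the markers and other list members named were chosen after their values were seen. A gene that the rule names and a motif searched are not reported here.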

Additional observations from a re-analysis of the deposited data

Results flagged for a closer look

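Of the 16 sets of 10 mice tested, 8 genes in each of the 2 groups, 2 held a mouse that stood apart by Dixon's criterion. Chance meets it in about 1 of 20 sets of normally distributed values. Here it was applied to CPM without log, and sets of the same group share their mice, so that rate is only a rough guide. CDAA-HFD mouse 32 had a Cyp2a22 level of 27.63 CPM, and its gap to the next mouse was 0.548 of the group's range. BLT1i mouse 76 had a Cyp2b13 level of 6.672 CPM, with a gap of 0.592 of the range. The same mice were the highest of their groups for Cyp2b9 and Cyp2a4.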

How the results depend on the processing

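Cyp2a5 passed under all 31 alternatives, with log2 fold changes from 0.65 to 0.86 and adjusted p of at most 0.00681. Cyp2e1 passed under 30 of 31 (0.33 to 0.41), and with the immediate early score as a covariate it was 0.29 and did not pass (adjusted p = 0.446). With each mouse left out in turn, Cyp2b9 ranged from 0.99 to 1.33 and passed in 2 of 20 fits, Cyp2b13 from 1.06 to 1.69 in 3 of 20, Cyp2a22 from 0.43 to 0.63 in 1 of 20, the Cyp2b sum from 0.99 to 1.34 in 2 of 20, the sum of Cyp2b9 and Cyp2b13 from 0.99 to 1.34 in 2 of 20, and the sum of Cyp2a12 and Cyp2a22 from 0.14 to 0.22 in 1 of 20. DESeq2 passed Cyp2b9 (1.14), Cyp2b13 (1.41), the Cyp2b sum (1.15) and the sum of Cyp2b9 and Cyp2b13 (1.15), and limma-voom with a weight per mouse passed Cyp2b9 (1.14) and the same sums (1.15 and 1.15). Their adjusted p over all alternatives ran from 0.0215 to 0.560 for Cyp2b9 and from 0.0290 to 0.432 for Cyp2b13. The cause was not tested. Cyp2a4, Cyp2a12 and Cyp2b10 passed under none of the alternatives tried. Leaving out mice 36 and 72, which correlated least with their group mates and were chosen after seeing the data, changed no call of a member.

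Over all genes, 511 were higher and 277 lower. These counts were 391 and 540 with library totals alone, 443 and 401 with upper-quartile scaling, 52 and 6 with the covariate, 313 and 144 on rounded FPKM plus 1, 294 and 126 on rounded FPKM plus 0.1, 232 and 48 at an adjusted p of 0.01, and 766 and 540 at 0.1. With each mouse left out in turn the higher genes numbered 397 to 559 and the lower genes 168 to 342. Of 220 list counts recomputed, 30 moved by more than 1.5 times, 12 of them with the covariate.

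The number of correlations past the threshold fell to 0 in both groups, from 2 in controls and 1 with BLT1i, without the 2 mice farthest from the median; those fits hold fewer mice. Differences in spread, none of which passed, changed sign for Cyp2b13 (0.50) and Cyp2a22 (-0.0071) on rounded FPKM; with each mouse left out, the spread difference of Cyp2e1 ranged from -0.024 to 0.034 and that of Cyp2b13 from -0.28 to 0.021. No paired analysis was possible because the mouse numbers of the groups are not shared. Depth limits Cyp2b10 and Cyp2b13, which had at most 25 and 162 reads in any mouse.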
